A study of Mus musculus with 4 samples.

Results

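Glutathione transferases and UDP-glucuronosyltransferases, the conjugating enzymes of drug and lipid-aldehyde disposal, were followed in livers of wild type (WT) and Nrg4 knockout (KO) mice. The members were all genes with a symbol of the Gsta, Gstk, Gstm, Gsto, Gstp, Gstt, Mgst, Ugt1a, Ugt2a, Ugt2b or Ugt3a classes and a probe set annotated to that symbol alone, which gave 31 of the 22180 genes measured. Of these, 21 encode glutathione transferases and 10 encode Ugt enzymes. Every member had 1 such probe set, and no Ugt1a gene had one. All mice were male, began a diet that causes non-alcoholic steatohepatitis (NASH; Research Diets D09100301) at 3 months of age and stayed on it for 20 weeks, and livers were collected from freely feeding animals. The 2 groups differ by genotype, WT against loss of Nrg4, a secreted protein that signals through ErbB receptors, and no group on another diet was used here. Each genotype was represented by 2 pools of liver RNA, each on an Affymetrix Mouse Gene ST 2.1 array. How many animals a pool holds, their strain and the tissue reach of the knockout are not stated in the sources used here.

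Glutathione transferases couple the tripeptide glutathione to reactive electrophiles such as epoxides and lipid aldehydes. The cytosolic alpha, mu, pi, theta and omega classes are soluble enzymes, the kappa enzyme lies in mitochondria and peroxisomes, and the Mgst enzymes are membrane proteins of another fold. UDP-glucuronosyltransferases of the Ugt1a and Ugt2 families sit in the endoplasmic reticulum and transfer glucuronic acid to bilirubin, steroids, bile acids and drugs. Hepatocytes carry out much of the body's conjugation with both substrates, and the drug-sensing receptors CAR, PXR and AHR and the antioxidant factor NRF2 are known regulators of many of these genes.

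The start-site regions of the members on which the results turn are shown first, so that the sequence beside each value can be read. They are RefSeq sequences of assembly GRCm38.p6, with 250 bases before and 50 from the annotated start, and 28 of the 31 members had one. Gstm3 and Mgst3 stood highest in the KO pools relative to WT, and Gsta3 is shown because it holds an antioxidant response element. Capitals mark matches to 4 motifs searched on both strands: TGACNNNGC (antioxidant response element), GCGTG (core of the xenobiotic response element), AGGTCA (nuclear receptor hexamer) and GTTAAT (HNF1 hexamer). On the other strand AGGTCA reads TGACCT, which can also begin an antioxidant element, so these 2 motifs may overlap.
Gstm3 (chr3:107969125-107969424, minus strand): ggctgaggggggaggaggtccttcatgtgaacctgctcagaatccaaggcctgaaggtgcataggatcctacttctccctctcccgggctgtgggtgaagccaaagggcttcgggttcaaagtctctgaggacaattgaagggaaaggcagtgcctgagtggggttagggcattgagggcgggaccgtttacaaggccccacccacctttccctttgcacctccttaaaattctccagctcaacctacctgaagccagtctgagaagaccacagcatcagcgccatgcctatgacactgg
Mgst3 (chr1:167393792-167394091, minus strand): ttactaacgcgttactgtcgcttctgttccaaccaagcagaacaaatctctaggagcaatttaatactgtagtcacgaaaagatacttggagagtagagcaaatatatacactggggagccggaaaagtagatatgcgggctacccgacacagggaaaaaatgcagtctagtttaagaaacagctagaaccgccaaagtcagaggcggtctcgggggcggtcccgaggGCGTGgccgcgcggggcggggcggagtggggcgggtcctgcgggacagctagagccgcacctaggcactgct
Gsta3 (chr1:21240335-21240634, plus strand): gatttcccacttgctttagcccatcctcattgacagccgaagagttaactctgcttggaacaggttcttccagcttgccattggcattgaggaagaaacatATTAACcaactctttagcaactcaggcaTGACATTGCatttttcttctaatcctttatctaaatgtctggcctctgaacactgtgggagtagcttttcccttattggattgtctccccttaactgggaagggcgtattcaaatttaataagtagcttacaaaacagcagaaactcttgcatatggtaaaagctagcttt

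For the Ugt2 cluster the stretch from 70 bases before to 50 bases from the start is shown, since these tandem genes can be compared there.
Ugt2b1 (chr5:86926454-86926573, minus strand): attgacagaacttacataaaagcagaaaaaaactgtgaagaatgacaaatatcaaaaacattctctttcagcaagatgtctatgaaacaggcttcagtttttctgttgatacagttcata
Ugt2b5 (chr5:87140291-87140410, minus strand): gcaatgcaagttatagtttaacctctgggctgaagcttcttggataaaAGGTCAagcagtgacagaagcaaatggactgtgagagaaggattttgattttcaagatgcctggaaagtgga
Ugt2b36 (chr5:87092506-87092625, minus strand): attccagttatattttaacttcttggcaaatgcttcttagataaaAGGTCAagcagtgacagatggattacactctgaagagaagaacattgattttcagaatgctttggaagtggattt
Ugt2b37 (chr5:87254739-87254858, minus strand): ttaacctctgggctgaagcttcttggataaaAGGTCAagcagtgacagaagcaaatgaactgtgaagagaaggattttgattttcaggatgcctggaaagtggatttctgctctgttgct
Ugt2b38 (chr5:87424154-87424273, minus strand): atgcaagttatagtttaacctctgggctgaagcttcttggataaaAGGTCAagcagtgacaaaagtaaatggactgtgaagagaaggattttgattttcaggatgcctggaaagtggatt
Ugt2a3 (chr5:87337146-87337265, minus strand): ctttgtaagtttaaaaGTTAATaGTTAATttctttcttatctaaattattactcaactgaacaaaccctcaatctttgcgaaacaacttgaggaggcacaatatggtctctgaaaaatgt

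AGGTCA lay 22 to 39 bases before the annotated start in Ugt2b5, Ugt2b36, Ugt2b37 and Ugt2b38, inside a shared stretch, and Ugt2b1 and Ugt2a3 had no match to it in the window. Over their 300 bases, Ugt2b37 and Ugt2b38 aligned with 86.9% identity and Ugt2b5 and Ugt2b38 with 84.2%. Ugt2b1 reached 46.9% to 49.3% with the other 7 genes of the cluster. Its range was not particular to it, since Ugt2a3 reached 45.3% to 49.7% and Ugt2b34 46.3% to 50.3%. Across members, the antioxidant element was found in 3 of 28 genes (Gsta3, Gstm7 and Mgst1), the xenobiotic core in 4 (Gstm1, Gstp1, Gstp3 and Mgst3), the nuclear receptor hexamer in 7 and the HNF1 hexamer in 3. Some genes have several promoters, and counted by promoter the motifs were in 3, 5, 7 and 3 of 36 member promoters. Of all 32851 RefSeq promoters of this length, 12.4%, 32.4%, 16.3% and 7.1% held them. Gstm3 and Ugt2b1 had no match to any of the 4 motifs in these windows. The same held for their neighbours Gstm2, Gstm4, Gstm6 and Ugt2b34 and for several other members. A match is a run of letters and was not tested for function.

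Levels are the deposited log2 values. The zero point of that scale is unknown, so a level is compared between pools of 1 gene and not between genes, and the median of all probe sets, 0.54, is given as the dim end. Nrg4 itself had WT values of 2.54 and 2.30 and a KO value of 0.93 in both pools. KO was compared with WT by limma over the 12458 genes whose mean reached that median, and 26 of the 31 members were among them. The 5 that were not are Gsto2, Gstt4, Mgst2, Ugt2b37 and Ugt2b38, for which differences are values only. No member passed an adjusted p of 0.05 by limma, against 0.0482% of all genes tested (6 genes). At an unadjusted p under 0.05 stood 4 of 26 members (Gstm3, Mgst3, Ugt2b1 and Gstp2), or 15.4%, beside 10.3% of all genes. With an intensity-trended variance, an option of limma in which the prior spread of a gene depends on its level, 2 members (7.69%) were called, beside 1.09% of all genes. These were Gstm3 as higher, beside 0.393% of all genes called higher, and Ugt2b1 as lower, beside 0.698% called lower. With 2 pools against 2, an exact permutation test of a single gene cannot go below p = 0.333. Each limma p-value rests on how far 2 pools of a genotype lie apart, drawn toward a prior spread taken over all genes tested. The spread between pools may be technical.

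Both KO pools lay above both WT pools in 5 members (16.1%), all of them glutathione transferases, and below both in 10 (32.3%), of which 6 were glutathione transferases and 4 Ugt enzymes. Over all 22180 genes the shares were 20.9% and 17.0%. Of those below, the groups were only 0.0082 apart in Ugt2b34, 0.010 in Mgst1, 0.020 in Gstt4 and 0.054 in Gsto2. Gstt4 and Gsto2 lay at the dim end. Of those above, the groups were only 0.0078 apart in Gstm2 and 0.010 in Gstp3. The member counts were 7 above and 8 below with arrays quantile normalized, and 4 and 10 with arrays centred on their medians. The shares over all genes under these scalings are not given. The glutathione transferases split nearly evenly, with 11 higher and 10 lower in KO and a median difference of 0.028 on the log2 scale, which became -0.019 with arrays centred on their medians and also turned below 0 without WT pool 2 (-0.0084) and without KO pool 2 (-0.011). Of the 10 Ugt members, 9 were lower and 1 was higher, with a median of -0.46, beside a median of 0.018 and a lower share of 47.6% over all genes. That count was the same with arrays centred on their medians or quantile normalized. It was 6 lower and 4 higher without WT pool 1 (median -0.17), and 10 lower without KO pool 1 (median -0.28). Of the Ugt members, 8 lie in 1 cluster on chromosome 5 and share sequence, and Ugt3a1 and Ugt3a2 lie on chromosome 15, so they are not 10 independent genes.

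**Figure D1:**
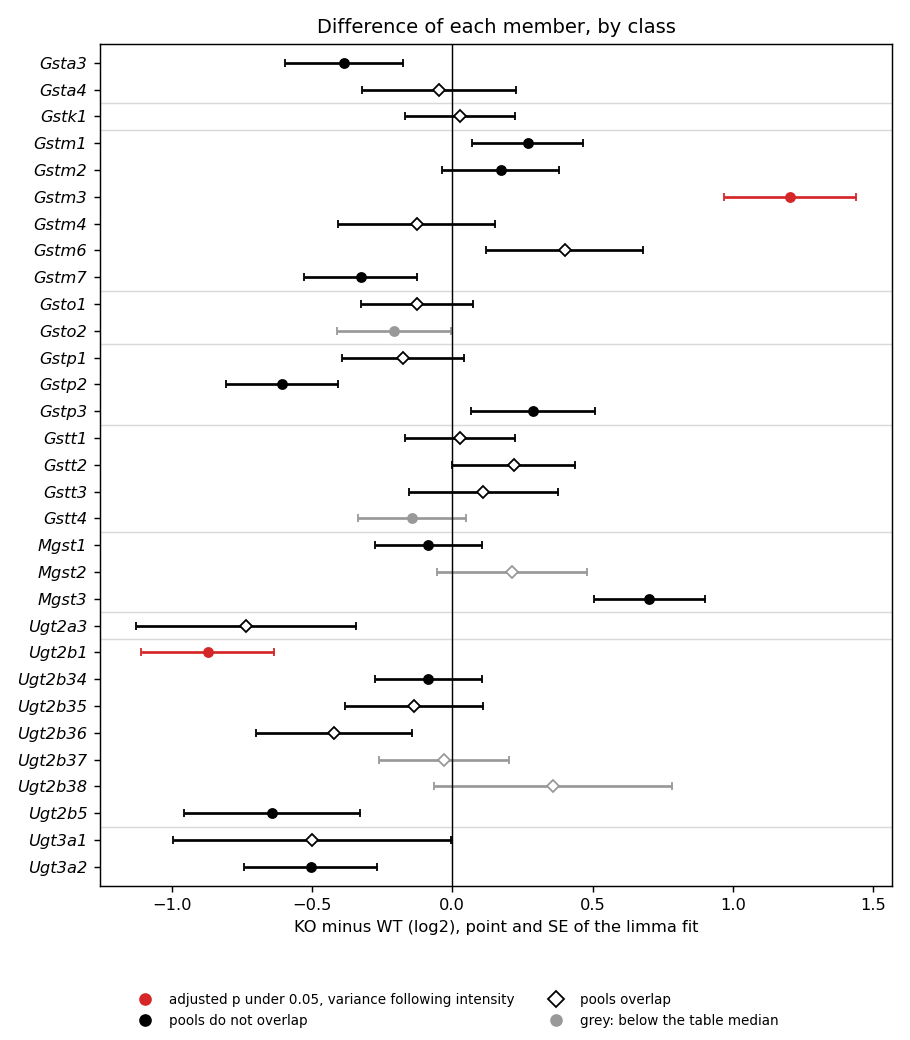
KO minus WT on the log2 scale (x axis) for each of the 31 members (y axis, grouped by class), as the mean difference of 2 pools per genotype with the SE of the limma fit. Gstm3 at 1.20 and Ugt2b1 at -0.87 (red) lie farthest from 0, and 9 of the 10 Ugt members lie left of it.

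Mu class transferases conjugate epoxides and other electrophiles, and Gstm3 was the member with the largest difference. It had WT levels of 3.90 and 3.48 and KO levels of 5.02 and 4.77. The groups did not overlap, and the lower KO pool stood 0.87 above the higher WT pool. The difference was 1.20 ± 0.24 (SE; limma, adjusted p = 0.268), a 2.30-fold higher level in KO, with a 95% interval of 0.62 to 1.79. With an intensity-trended variance its adjusted p by limma was 0.043. Without any 1 of the 4 pools, the difference lay between 1.00 and 1.41, and its adjusted p between 0.419 and 0.619.

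The neighbours of Gstm3 in the same gene cluster differed by less. Gstm1, a major hepatic mu enzyme, was at 5.65 and 5.43 in WT and at 5.77 and 5.85 in KO, a difference of 0.27 ± 0.20 (SE; limma, adjusted p = 0.698) that was 0.16 without WT pool 2. Gstm2 was at 3.31 and 3.33 against 3.64 and 3.34, so KO pool 2 and the WT pools were nearly level. Gstm7 lay below WT in both KO pools, at 2.94 and 3.08 in WT and 2.79 and 2.58 in KO. Gstm6 overlapped, with KO pool 1 at 3.33 and KO pool 2 at 2.66 beside 2.48 and 2.70 in WT, and so did Gstm4 at 2.31 and 1.83 against 1.69 and 2.20. The class median over its 6 members was 0.22. Differences between Gstm3 and its neighbours were not tested, and mu class genes share sequence, so a probe set may measure relatives too. A probe set annotated to both Gstm5 and a clone gene gave 2.65 and 2.13 in WT and 2.65 and 2.50 in KO.

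**Figure D2:**
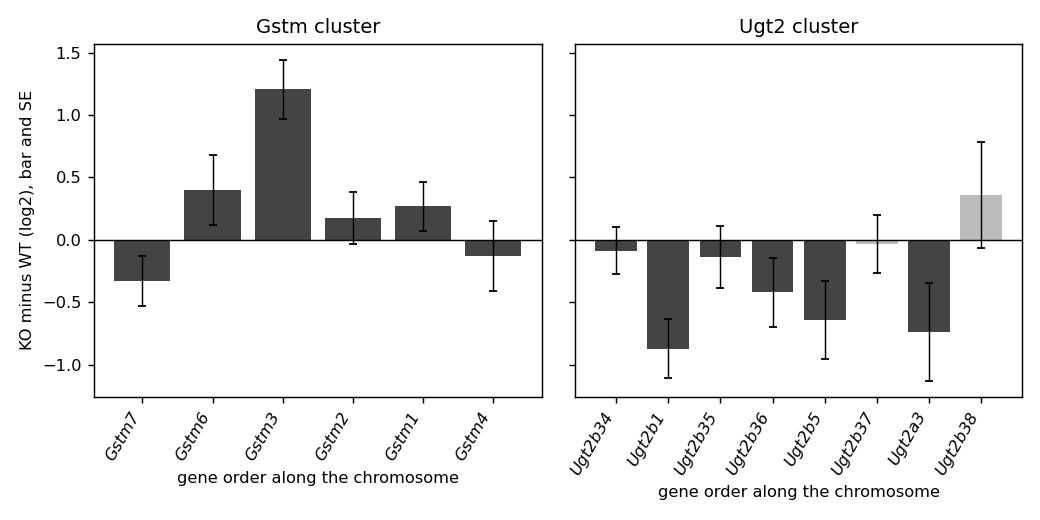
KO minus WT on the log2 scale (y axis, bars with the SE of the limma fit) for the Gstm genes and the Ugt2 genes in their order along the chromosome (x axis), with genes below the table median in grey. Gstm3 stands at 1.20 between Gstm6 at 0.40 and Gstm2 at 0.17, and Ugt2b1 at -0.87 between Ugt2b34 at -0.085 and Ugt2b35 at -0.14.

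Alpha class enzymes detoxify lipid peroxidation products, and Gsta3 is the mouse enzyme known for aflatoxin epoxide conjugation. Gsta3 was lower in both KO pools, at 7.94 and 8.002 in WT and 7.43 and 7.75 in KO, a difference of -0.39 ± 0.21 (SE; limma, adjusted p = 0.605) that was -0.23 without KO pool 1. Gsta4, which conjugates hydroxynonenal, overlapped at 6.13 and 6.21 against 5.79 and 6.46, and its difference of -0.046 turned to 0.040 with quantile normalization. Gsta1 and Gsta2 had no probe set of their own. Of 3 probe sets annotated to both of them and to predicted genes, the first was at 4.27 and 3.82 in WT and 4.79 and 5.85 in KO. That is a difference of 1.27 ± 0.42 (SE; limma over all probe sets, adjusted p = 0.740), with KO pool 2 the highest. The next was at 5.39 in both WT pools and at 6.11 and 5.70 in KO, a difference of 0.51 ± 0.23. The last lay below the table median in every pool. The shared Gsta1 and Gsta2 probe sets that stood above the dim end were thus higher in both KO pools, and Gsta3 was lower.

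Pi class genes differed in direction. Gstp1, which is abundant in male mouse liver, was at 9.19 and 9.26 in WT and 9.23 and 8.87 in KO, and the groups overlapped. Gstp2 was lower in both KO pools, at 6.06 and 6.14 against 5.61 and 5.38, a difference of -0.61 ± 0.20 (SE; limma, adjusted p = 0.411) with a 95% interval of -1.10 to -0.11. A probe set annotated to Gstp1 and Gstp2 together was also lower in both, at 8.16 and 7.98 against 7.15 and 7.51, or -0.75 ± 0.23 (SE; limma over all probe sets, adjusted p = 0.721). Gstp3 went the other way by 0.29 ± 0.22, at 6.12 and 6.37 against 6.38 and 6.69, with KO pool 1 only 0.010 above WT pool 2. The Gstp1 and Gstp2 start-site regions aligned with 76.4% identity and those of Gstp2 and Gstp3 with 43.6%. Gstp1 and Gstp2 are close copies, and how the array divides signal between them was not tested.

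Theta, kappa and omega enzymes showed small differences. Gstt1, which acts on small halogenated compounds, was at 6.25 and 6.37 in WT and 6.27 and 6.41 in KO, a difference of 0.028 with a 95% interval of -0.45 to 0.51. Gstt2 stood at 5.02 and 4.63 against 5.01 and 5.08, and Gstt3 at 2.26 and 2.83 against 2.80 and 2.51, so the groups overlapped in both genes. Gstt4 lay below the table median in all pools, with at most 0.26. Gstk1, the kappa enzyme, was at 7.72 and 7.58 against 7.60 and 7.75, with a difference of 0.029 and a 95% interval of -0.46 to 0.51. The signs of Gstt1 and Gstk1 turned with arrays centred on their medians (-0.019 and -0.018). Gsto1, an omega enzyme with thiol transferase activity, was at 5.83 and 5.63 against 5.54 and 5.67, and Gsto2 lay below the table median in all pools.

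Among the membrane-bound enzymes, Mgst3 was higher in both KO pools. It was at 3.33 and 3.15 in WT and at 4.02 and 3.87 in KO, and the groups were separated by 0.54. The difference was 0.70 ± 0.20 (SE; limma, adjusted p = 0.364), or 1.63-fold, with a 95% interval of 0.21 to 1.19. Without any 1 pool it lay between 0.61 and 0.79. Mgst1, the microsomal transferase that also has peroxidase activity, was at 8.16 in both WT pools and at 8.15 and 7.997 in KO, a difference of -0.085 with a 95% interval of -0.56 to 0.39. Mgst2, known for leukotriene C4 synthesis, lay near the table median, at 0.10 and 0.72 in WT and 0.75 and 0.49 in KO.

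**Figure D3:**
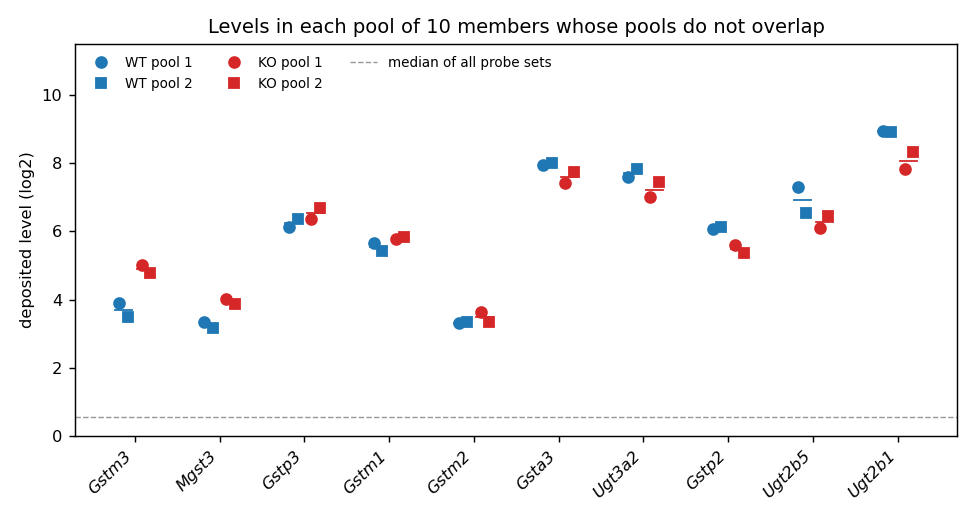
Deposited log2 level (y axis) in each of the 4 pools for 10 members whose pools do not overlap (x axis), 5 of them higher and 5 lower in KO, with genotype means as short lines and the median of all probe sets, 0.54, dashed. Gstm3 runs from 3.48 to 3.90 in WT and from 4.77 to 5.02 in KO, and Ugt2b1 from 8.93 to 8.95 in WT and from 7.82 to 8.32 in KO.

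Ugt2b enzymes glucuronidate steroids, bile acids and drugs, and Ugt2b1 differed the most among them. It had WT levels of 8.95 and 8.93 and KO levels of 7.82 and 8.32. The WT pools lay 0.023 apart and the KO pools 0.50 apart, with KO pool 1 the lower. The difference was -0.87 ± 0.24 (SE; limma, adjusted p = 0.349), a 1.83-fold lower level in KO, with a 95% interval of -1.46 to -0.28. With an intensity-trended variance its adjusted p by limma was 0.023. It was -0.62 without KO pool 1 and -1.118 without KO pool 2.

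The adjacent Ugt2b34 was nearly level between genotypes, at 8.79 and 8.78 in WT and 8.63 and 8.77 in KO. Its difference of -0.085 had a 95% interval of -0.56 to 0.39 (limma). Ugt2b5 was lower in both KO pools, at 7.31 and 6.53 in WT and 6.11 and 6.44 in KO, or -0.64 ± 0.31 (SE; limma, adjusted p = 0.568). WT pool 1 was the high pool here, and without it the difference was -0.25. Ugt2b36 overlapped, at 6.26 and 6.53 against 5.65 and 6.29, and was at -0.10 without KO pool 1. Ugt2b35 overlapped too, at 6.61 and 6.06 against 6.197 and 6.202. Ugt2b37 and Ugt2b38, whose start-site stretch resembles that of Ugt2b5 in the sequences shown, lay near the dim end, with values from -0.10 to 0.32 and from -0.02 to 1.24. The 1.24 of Ugt2b38 came from KO pool 1 alone, and it was the 1 Ugt member with a higher KO mean. The class median over 7 members was -0.14.

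Ugt2a3, the cluster's Ugt2a gene with a probe set of its own, was at 6.85 and 6.05 in WT and 5.29 and 6.14 in KO. The groups overlapped, since KO pool 2 lay above WT pool 2, and the difference of -0.73 ± 0.39 (SE; limma, adjusted p = 0.598) became -0.31 without KO pool 1 and -0.33 without WT pool 1. A probe set shared by Ugt2a1 and Ugt2a2 lay below the table median in all pools. Ugt3a enzymes use sugars other than glucuronic acid in humans. Ugt3a2 was lower in both KO pools, at 7.61 and 7.84 against 6.998 and 7.44, or -0.50 ± 0.24 (SE; limma, adjusted p = 0.557), and its difference was -0.28 without KO pool 1. Ugt3a1 had the widest spread of the tested members within a genotype, at 6.59 and 5.36 in WT and 5.94 and 5.005 in KO, and its difference of -0.50 ran from -1.11 to 0.11 when a pool was left out.

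The Ugt1a genes, which include the bilirubin-conjugating enzyme Ugt1a1, splice alternative first exons to shared exons, and 2 probe sets annotated to several of them were read in place of single genes. The probe set annotated to 8 Ugt1a genes was at 3.74 and 3.65 in WT and 3.413 and 3.419 in KO, a difference of -0.28 ± 0.19 (SE; limma over all probe sets, adjusted p = 0.884). The probe set annotated to 5 of them was at 4.05 and 3.67 against 3.57 and 3.28, a difference of -0.43 ± 0.24 (adjusted p = 0.863 by limma). Both KO pools lay below both WT pools in each probe set. No single Ugt1a gene can be named from them.

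**Figure D4:**
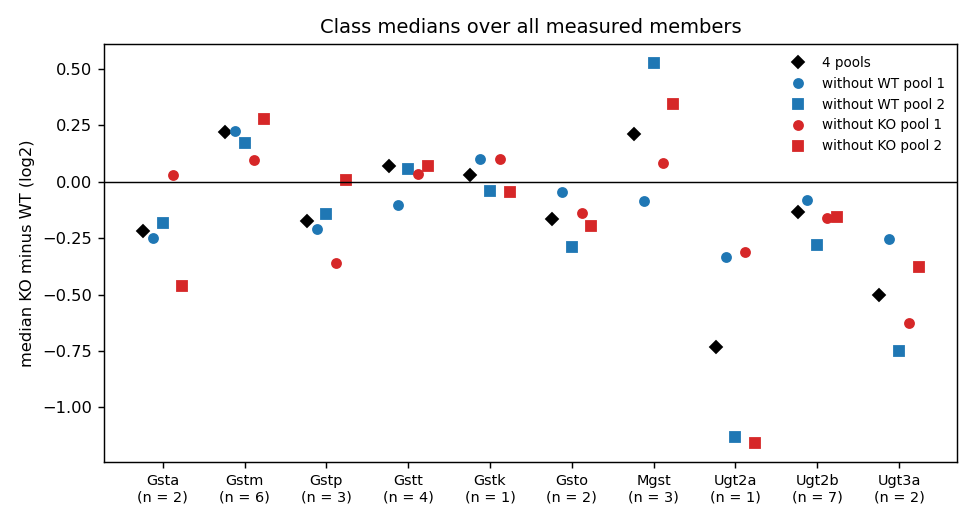
Median KO minus WT difference on the log2 scale (y axis) over all measured members of each class (x axis, with the number of members), from all 4 pools and with each pool left out. The Ugt2a, Ugt2b and Ugt3a medians stay below 0 in each case, while the Gsta, Gstp, Gstt, Gstk and Mgst medians take either sign.

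By class, the medians were -0.22 for Gsta, 0.22 for Gstm, -0.18 for Gstp, 0.069 for Gstt, 0.029 for Gstk, -0.17 for Gsto, 0.21 for Mgst, -0.73 for Ugt2a, -0.14 for Ugt2b and -0.50 for Ugt3a. They are descriptions over 1 to 7 genes. Leaving out 1 pool kept the sign of the Gstm, Gsto, Ugt2a, Ugt2b and Ugt3a medians and turned that of the other 5 in at least 1 case. Those that kept their sign ran from 0.095 to 0.28 for Gstm, -0.29 to -0.043 for Gsto, -1.16 to -0.31 for Ugt2a, -0.28 to -0.079 for Ugt2b and -0.75 to -0.25 for Ugt3a. The Mgst median was -0.086 without WT pool 1 and 0.53 without WT pool 2, and from all 4 pools the middle gene is the dim Mgst2.

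The supply of both cosubstrates was read from lists of pathway genes. Of 18 measured genes of glutathione synthesis and turnover, none passed by limma (2 of 17 tested at an unadjusted p under 0.05), 7 were higher and 11 lower, and the median was -0.050. These counts were 10 and 8 without KO pool 1 (median 0.029), 5 and 13 without KO pool 2 (median -0.12) and 9 and 9 with quantile normalization. The rate-limiting ligase subunits Gclc and Gclm had differences of -0.030 and 0.055. The smallest p belonged to Ggt6, a gamma-glutamyltransferase family member (2.48 and 2.38 in WT, 1.69 and 1.85 in KO; -0.67 ± 0.20 SE). It was followed by Chac2, a glutathione-degrading cyclotransferase (5.01 and 4.97 against 4.14 and 4.58), and Cbs, the first enzyme of transsulfuration (6.67 and 6.69 against 6.10 and 6.31). Of 14 genes around UDP-glucuronate, none passed by limma (0 of 14 at an unadjusted p under 0.05), 9 were higher and 5 lower. Ugdh, which makes UDP-glucuronate, was at 7.41 and 7.19 in WT and 7.73 and 7.60 in KO. Ugp2, which makes its precursor UDP-glucose, was at 7.65 and 7.61 against 7.08 and 7.37, and the phosphoglucomutase Pgm2 at 2.76 and 3.28 against 3.76 and 3.45. The KO pools thus lay above WT for Ugdh and Pgm2 and below WT for Ugp2.

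Downstream of glutathione conjugation, Nat8 acetylates cysteine conjugates to mercapturates. Nat8 was at 1.94 and 2.11 in WT and at 0.40 and 0.18 in KO. Its KO values lay below the table median, and it passed the filter through its WT pools, so no difference or p is given. It belongs to a list of 21 measured glutathione-dependent and MAPEG enzymes, of which 11 were higher and 10 lower (8 and 13 with arrays centred on their medians or quantile normalized, 10 and 11 without any 1 pool). Of 20 tested, 2 had an unadjusted p under 0.05 by limma, and none passed the adjusted threshold. That count includes Nat8, whose p is not used here, and the other gene is Gpx3. Gpx3, the plasma glutathione peroxidase, was at 1.92 and 2.37 against 2.71 and 3.25, and Hagh, the second glyoxalase, at 6.38 and 6.52 against 6.15 and 5.90. Among 13 conjugate transporters, 8 were higher and 5 lower, 2 of 12 tested had an unadjusted p under 0.05 by limma and none passed. Abcc2, the canalicular pump for glutathione and glucuronide conjugates, was at 8.52 and 8.47 against 8.66 and 8.72, and Abcc3, its basolateral relative, at 7.15 and 7.17 against 7.11 and 7.23. The smallest p belonged to Abcb1b (-0.54 ± 0.19 SE), Abcc5 (0.61 ± 0.22) and Abcg2 (-0.43 ± 0.20).

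Among 25 measured regulators, 10 were higher and 15 lower (13 and 12 without KO pool 1) and none passed by limma (2 of 23 tested at an unadjusted p under 0.05). Nr1i3, which encodes the drug receptor CAR, was lower in both KO pools, at 7.43 and 7.47 in WT and 6.88 and 6.71 in KO. The difference was -0.66 ± 0.19 (SE; limma, adjusted p = 0.372, or 0.033 with an intensity-trended variance). Nfe2l2, which encodes NRF2, was at 6.55 and 6.68 against 6.87 and 6.97, and the small Maf partners Mafk and Mafg differed by 0.75 ± 0.28 and -0.54 ± 0.24. Nr1i2 (PXR) and Ahr differed by -0.14 and -0.043.

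Genes listed as reporters of these receptors were read beside the members, and what drives each of them in these livers was not tested. All 7 NRF2 reporter genes had a higher KO mean, by 0.0077 to 0.52, or 6 of 7 with arrays centred on their medians and 5 of 7 without WT pool 1 or without KO pool 2. Their median was 0.19, and none passed by limma (0 of 6 tested at an unadjusted p under 0.05). Nqo1 was at 2.13 and 2.45 against 2.89 and 2.74, Hmox1 at 4.57 and 4.09 against 4.84 and 4.70, and Txnrd1 at 6.38 and 6.41 against 6.77 and 6.65. Of 4 AHR reporter genes 2 were higher and 2 lower. Cyp1a2 was lower, at 8.08 and 7.88 against 7.01 and 7.44 (-0.75 ± 0.23 SE; limma, adjusted p = 0.394, or 0.048 with an intensity-trended variance), and Cyp1b1 and Tiparp overlapped, with differences of 0.73 and 0.34. Of 7 measured genes on the CAR and PXR list, Cyp2b9 was higher, at 5.41 and 5.48 against 6.58 and 7.27. Its difference was 1.48 ± 0.28 (SE), with an adjusted p by limma of 0.266, or 0.012 with an intensity-trended variance. Cyp2b13, at 0.30 and 0.60 against 1.68 and 1.08, had a WT mean below the table median, and Cyp2c55 was at 1.63 and 0.50 against 1.77 and 1.74. Both KO pools lay below both WT pools in the PXR target Cyp3a11 (7.27 and 7.09 against 5.96 and 7.07), in Cyp3a13 and in Alas1, which differed by -0.29 and -0.21, and Cyp2b10 overlapped near the dim end. The list thus held 4 higher and 3 lower genes, and its median of 0.21 turned to -0.17 when WT pool 2 was left out and to -0.11 when KO pool 1 was. Which of the 7 genes follow CAR or PXR in these male livers was not tested, so the median is not read as receptor activity.

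The samples are whole liver, in which fewer cells of a type and less RNA per cell cannot be told apart. All 16 hepatocyte markers were above the table median, with a median difference of -0.032 (11 lower, 5 higher), and none called by limma (0 at an unadjusted p under 0.05). That median was 0.044 with quantile normalization (6 lower, 10 higher) and -0.079 with arrays centred on their medians (14 lower, 2 higher). Their median level ran from 9.30 to 9.31 in the WT pools and from 8.90 to 9.12 in the KO pools. Fibroblast and stellate markers had a median of 0.68 (9 of 11 higher; median level 3.72 to 3.74 in WT and 4.49 to 4.64 in KO) and macrophage markers one of 0.35 (10 of 12 higher; 4.49 to 4.58 against 4.82 to 4.98), or 0.20 without KO pool 1. At an unadjusted p under 0.05 by limma stood 6 of 11 fibroblast and stellate and 5 of 12 macrophage markers, beside 10.3% of all genes tested. The macrophage markers among these went both ways, with Cd68, Ccr2 and Cx3cr1 higher and Marco lower in KO. The 6 fibroblast and stellate markers were Col1a1, Col1a2, Col3a1, Lum, Pdgfra and Pdgfrb. In the other 5 of that list the groups overlapped, with differences of -0.092 for Des, -0.11 for Reln, 0.0080 for Acta2, 0.11 for Lrat and 0.23 for Dcn. The 2 lower macrophage markers were Marco, a scavenger receptor, at 2.63 and 3.53 in WT and 0.76 and 0.66 in KO (-2.37 ± 0.33 SE; limma, adjusted p = 0.181, or 0.018 with an intensity-trended variance), and Timd4, which differed by -0.40. Of 7 measured cholangiocyte markers 6 were higher, with a median of 0.71 (median level 0.96 to 1.31 in WT and 1.35 to 2.35 in KO), and Cftr lay below the table median in 3 of the 4 pools (0.65 in KO pool 1). The lower marker was Krt19, near the dim end at 0.79 and 0.78 in WT and 0.64 and 0.81 in KO, a difference of -0.058. Leaving out WT pool 2 gave a cholangiocyte median of 0.40, and leaving out KO pool 1 gave 1.21. Endothelial markers had a median of -0.083 over 7 genes and lymphocyte markers one of 0.17 over 7 genes. The part of these cell types in the values of Gstm3, Mgst3, the Gsta1 and Gsta2 probe sets and the Ugt members was not tested.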

How the data were processed

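Pooled liver RNA of WT and KO mice, 2 pools per genotype, was measured on 4 arrays. The values are the authors' deposited log2 expression values of 41345 probe sets. The tools oligo, RMA and limma are named by the submitters' processing notes, and their versions, their order and the genome build were not given in the sources used here. Platform annotation gave 23521 probe sets with 1 symbol, 1814 with several and 16010 with none. For each gene the probe set with the highest mean was kept. Genes whose mean reached the table median (0.54) entered limma 3.58.1 under R 4.3.3, with lmFit, eBayes and genotype as the only term (residual degrees of freedom 2, prior 3.67), Benjamini-Hochberg adjustment over 12458 genes and calls at an adjusted p under 0.05. Intervals are 95% intervals of that fit. SEs of genes under the filter come from a fit over 22180 genes, and those of shared probe sets from 1 over all probe sets. The procedure was tested on data simulated with the prior variance of this fit. Such data follow the model of limma, so the run does not show how the procedure behaves on 2 real pools per genotype.

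The members and lists were chosen with earlier results of these data known. Named were the members of each class up to the 4 with the highest mean, the 5 largest increases and decreases without overlap, and the 3 genes of each pathway list with the smallest p, and the remaining members are given for completeness. Gclc, Gclm, Abcc2, Abcc3, Nfe2l2, Nr1i2, Ahr and Cyp3a11 were added for their known role after their values were seen. Cyp3a13, Alas1, Cyp2b10, Marco, Timd4, Krt19 and the fibroblast and stellate markers were added then to complete their lists. Shared probe sets other than those of Ugt1a were also added then. Promoters are from RefSeq (GRCm38.p6), and all 31 members matched its gene table by Entrez identifier. Protein sequences were not used here. No detection calls, slide or scan date were used, and the number of arrays limits precision. Alternatives were other filters, variance models and scalings, the mean of probe sets, the pool number as a block, and leaving out each pool.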

Additional observations from a re-analysis of the deposited data

How the results depend on the processing

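Without any 1 of the 4 pools, limma called 0 genes in all (906 to 1314 at an unadjusted p under 0.05) and 0 members. The genes called were 136 with an intensity-trended variance, which also called 2 members, and 2 with the replicate block, beside the 6 reported. The pool numbers share only a number in the labels, and deviations of same-numbered pools from their group means correlated at -0.037 across tested genes. The block called no member (smallest adjusted p by limma 0.225). The other filters, the robust prior, both other scalings and the mean of probe sets also called no member by limma, and the mean of probe sets changed no member's value, since each has 1 probe set. Members with KO pools above WT pools numbered 8 to 9 and those below 13 to 16 when a pool was left out. There 1 pool stands for a genotype, and overlap is rarer by construction for all genes as well. The shares over all genes in these settings are not given, so these counts are not read as a result about the members. Without 1 pool, the medians lay between -0.10 and 0.069 for Gstt, -0.086 and 0.53 for Mgst, -0.28 and -0.079 for Ugt2b, and -0.44 and -0.17 for all Ugt members. Signs turned for Gstk1 (-0.018) and Gstt1 (-0.019) with arrays centred on their medians and for Gsta4 (0.040) with quantile normalization. They also turned, in members whose groups overlap, without 1 pool: Gsta4 ran from -0.38 to 0.29, Gstk1 from -0.043 to 0.10, Gstm4 from -0.38 to 0.13, Gstp1 from -0.36 to 0.0092, Gstt1 from -0.047 to 0.10, Gstt3 from -0.17 to 0.40, Ugt2b35 from -0.41 to 0.14 and Ugt3a1 from -1.11 to 0.11. Among the dim members, the sign also turned for Mgst2 without WT pool 1, for Ugt2b37 without WT pool 1 or KO pool 2, and for Ugt2b38 without KO pool 1. The causes were not tested. Values near the table median are at the dim end of the scale, where differences may be compressed.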
